A study of Mus musculus with 2 samples.

Results

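The genes described here encode proteins that the immune system recognises in type 1 diabetes: Gad1, Gad2, Ptprn, Ptprn2, Slc30a8, Ica1 and Tspan7. They were taken by gene symbol from the deposited table, which held all 7 among its 17245 genes. Pancreatic islets were isolated from mice by collagenase digestion, picked by hand and cultured, and their RNA was sequenced. There was 1 library from wild-type mice (WT) and 1 labelled KO, from mice described as lacking the cytosolic DNA sensor cGAS in β-cells. The promoter that drives the deletion, the deleted exon, and the strain, age and number of mice behind each library are not stated in the labels and so not given here.

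In type 1 diabetes the β-cells of the islets are destroyed by autoimmunity, and antibodies to a small set of islet proteins appear before the disease. Most of these proteins belong to the secretory machinery. Ptprn (also called IA-2) and its paralog Ptprn2 (phogrin) span the membrane of dense-core granules, and Slc30a8 is the zinc transporter that loads zinc into insulin granules. Gad1 and Gad2 are the enzymes that make the transmitter GABA from glutamate. Ica1 is a BAR-domain protein that acts where granules bud from the Golgi, and Tspan7 is a tetraspanin of the cell membrane.

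The 7 genes include 2 pairs of paralogs, and in both pairs the partners differed from each other in these islets. Ptprn and Ptprn2 lay on opposite sides of equality between the libraries, and Gad1 was abundant where Gad2 was close to absent. To set the partners of each pair side by side, the 250 bases before a start site listed in the RefSeq promoter table (build GRCm38.p6) are shown for each; where the table lists several, the one furthest upstream was taken. The outer bounds of Ptprn, Ptprn2, Gad1 and Gad2 given further on reach beyond these start sites, so other transcripts can begin further upstream. The table held 6 of the 7 genes. Capitals mark matches on either strand to the cAMP response element half-site TGACG, the TATA box TATAAA or the GC box GGGCGG.
Ptprn, chr1:75264209-75264458, minus strand: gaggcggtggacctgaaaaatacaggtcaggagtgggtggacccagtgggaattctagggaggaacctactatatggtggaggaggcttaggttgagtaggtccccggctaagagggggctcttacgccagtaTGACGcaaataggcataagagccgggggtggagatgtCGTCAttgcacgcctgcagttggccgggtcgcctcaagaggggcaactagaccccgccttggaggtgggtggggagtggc
Ptprn2, chr12:116485470-116485719, plus strand: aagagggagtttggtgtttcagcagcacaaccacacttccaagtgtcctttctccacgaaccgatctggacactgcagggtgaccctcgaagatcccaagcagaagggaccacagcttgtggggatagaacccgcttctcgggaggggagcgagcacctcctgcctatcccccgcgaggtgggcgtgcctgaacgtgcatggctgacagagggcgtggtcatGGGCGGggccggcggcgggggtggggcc
Gad1, chr2:70561879-70562128, plus strand: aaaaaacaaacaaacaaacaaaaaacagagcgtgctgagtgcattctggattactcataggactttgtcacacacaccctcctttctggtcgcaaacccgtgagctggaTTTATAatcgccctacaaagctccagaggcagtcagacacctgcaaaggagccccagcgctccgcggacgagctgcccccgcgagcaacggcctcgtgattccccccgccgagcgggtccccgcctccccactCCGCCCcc
Gad2, chr2:22622077-22622326, plus strand: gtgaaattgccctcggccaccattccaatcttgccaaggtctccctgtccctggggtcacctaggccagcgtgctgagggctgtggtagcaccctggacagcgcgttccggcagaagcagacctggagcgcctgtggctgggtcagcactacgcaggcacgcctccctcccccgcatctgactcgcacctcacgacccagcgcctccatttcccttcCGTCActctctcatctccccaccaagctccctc

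The stretch before Ptprn held 2 matches to TGACG and the one before Ptprn2 held none, while the Ptprn2 stretch held 1 match to GGGCGG and that of Ptprn none. The stretch before Gad1 held 1 match to TATAAA and 1 to GGGCGG, and that of Gad2 held 1 to TGACG. The stretch before Ica1, not printed, also held 2 matches to TGACG, with 1 to TATAAA and 1 to GGGCGG. That before Tspan7, not printed, held 2 to GGGCGG only. The share of promoters with 2 matches was not counted. Of the 32851 promoters in the table, 17.8% held TGACG, 12.4% TATAAA and 32.7% GGGCGG within the same window. The full palindrome TGACGTCA, present in 1.55% of promoters, was found before none of the 6 genes. The printed matches do not overlap each other. They describe the letters only, and no binding was measured.

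Levels are given as FPKM, reads or fragments per kilobase of gene length per 1000000, as deposited. Whole read numbers could be recovered from these values, with totals of 14537660 reads for the KO-labelled library and 19097001 for WT. Each interval below is a 95% interval from those reads, exact except for ratios of ratios, and covers counting error only. There is no replicate, so no p-value is given and mouse-to-mouse spread is unknown. Cgas itself was at 0.521 FPKM in the KO-labelled library and 0.205 FPKM in WT (31 and 16 reads), 2.55-fold higher (1.35 to 4.98) in the library from which it should be lacking in β-cells. The label is therefore not borne out by this gene's total, which does not separate exons or cell types. All directions are given by label, and each would turn if the labels were exchanged. In RNA of whole islets, fewer cells of a type and less RNA per cell cannot be told apart.

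Slc30a8 was the most abundant of the 7 genes in both libraries, at 289 FPKM in the KO-labelled library and 453 FPKM in WT. Among the 12428 genes that reached 1 FPKM in either library, it stood at percentile 99.0 and 99.7. In WT the order that followed was Ptprn2, Ptprn, Tspan7, Gad1, Ica1 and Gad2. In the KO-labelled library the order was the same except that Ptprn stood above Ptprn2. Every step of both orders was wider than counting error. The narrowest was Tspan7 over Gad1 in the KO-labelled library, a ratio of 1.34 (1.27 to 1.42).

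Levels of different genes depend on the length by which reads were divided. The length contained in the Slc30a8 values was 1971 nucleotides, equal to its annotated exons in GENCODE M21. For Ica1 it was at least 5758 nucleotides, against 3243 for its annotated exons and 2075 for its longest coding transcript. The Ica1 length is thus longer than that annotation gives. With the longest coding transcript of each gene as its length, Ica1 rather than Tspan7 came after Ptprn2 in the KO-labelled library, and Gad1 dropped below Ica1 in both libraries. The step of Tspan7 over Gad1 turned in the KO-labelled library, to levels of 30.7 for Tspan7 and 39.8 for Gad1. Slc30a8 stayed first, Gad2 last, and the Ptprn pair kept its opposite order in the 2 libraries. Comparisons of 1 gene between the libraries do not depend on this length.

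**Figure D1:**
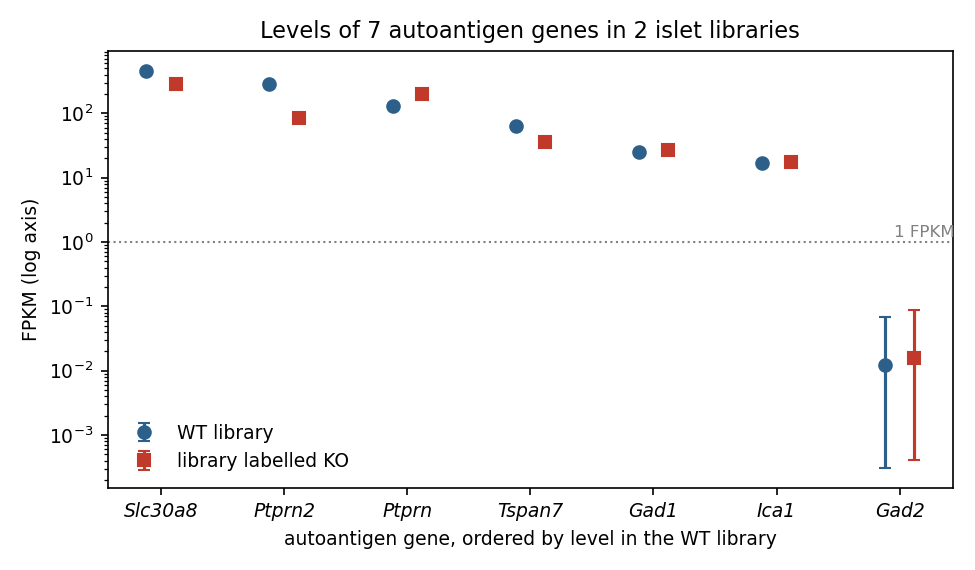
FPKM of each autoantigen gene (log axis) in the WT library (blue circles) and the KO-labelled library (red squares), with exact 95% Poisson intervals of counting error, which are smaller than the symbols except for Gad2. Slc30a8 is highest at 453 and 289 FPKM, Ptprn and Ptprn2 exchange places, and Gad2 lies far below the dotted line at 1 FPKM.

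The granule-membrane pair gave the widest difference. Ptprn2 was at 84.4 FPKM (82.2 to 86.6) in the KO-labelled library and 282 FPKM (279 to 285) in WT. It was thus 3.34-fold lower (3.25 to 3.44) in the KO-labelled library, from 5779 against 25376 reads. Ptprn was at 196 FPKM (193 to 200) in the KO-labelled library and 132 FPKM (129 to 134) in WT, a ratio of 1.49 (1.45 to 1.53). So the partner that was the minor one in WT was the major one in the KO-labelled library. Ptprn2 made up 68.1% of the summed FPKM of the pair in WT and 30.0% in the KO-labelled library. The sum itself was 414 FPKM in WT and 281 FPKM in the KO-labelled library. Dividing the ratio of Ptprn2 to Ptprn in one library by that in the other removes any difference in scaling, and gave a log2 value of -2.32 (-2.37 to -2.26). With the longest coding transcripts as lengths the ratio of Ptprn2 to Ptprn was 0.532 in the KO-labelled library and 2.65 in WT, against 0.429 and 2.14 as deposited.

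Ptprn lies on mouse chromosome 1 from 75247035 to 75264497 on the minus strand and spans 17463 bases. Ptprn2 lies on chromosome 12 from 116485695 to 117278167 on the plus strand and spans 792473 bases. The annotation places Gm6750, a pseudogene at 0.121 and 0.139 FPKM, and 5 other small noncoding or pseudogene models within the bounds of Ptprn2, and the antisense gene Gm28294 over Ptprn. Whether counting used strand is not given in the sources used here, so antisense reads cannot be separated. The nearest genes on either side of Ptprn in the table had log2 differences close to its own, though at other levels. These differences shrank or turned in sign with a correction for base composition and length that is described further on. Resp18, a granule protein related to the luminal part of Ptprn, was at 2105 against 1456 FPKM (log2 difference 0.53, corrected -0.014), and Dnajb2, a co-chaperone, was at 41.6 against 28.0 FPKM (0.55, corrected 0.18). The neighbours of Ptprn2 were low, with Ncapg2 at 0.557 and 0.910 FPKM and Rapgef5 at 4.81 and 2.51 FPKM.

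Of the GABA-making enzymes, Gad1 was expressed and Gad2 was barely detected. Gad1 was at 27.1 FPKM (25.9 to 28.3) in the KO-labelled library and 25.1 FPKM (24.1 to 26.1) in WT, from 1942 and 2365 reads. The ratio was 1.08 (1.02 to 1.15). Its interval lies above 1, but the log2 difference of 0.11 became -0.037 when both libraries were scaled to the same sum, so these libraries do not fix its direction. Gad2 was at 0.0159 FPKM in the KO-labelled library and 0.0121 FPKM in WT, which is 1 read in each. No fold between the libraries is given for it. Within a library, Gad1 was 1700 times Gad2 in the KO-labelled library (305 to 67172) and 2070 times in WT (371 to 81796). Gad2 encodes the isoform against which patients mainly make antibodies, and mouse islets are known to make mainly the Gad1 product. Both genes are on chromosome 2, Gad1 from 70561303 to 70602014 and Gad2 from 22621015 to 22693877, each on the plus strand. The antisense gene Gad1os overlaps Gad1, and the miRNA genes Mir3967 and Gm23636 overlap Gad2. The neighbours of Gad1 were Erich2, below 1 FPKM in both libraries, and Gorasp2, with a log2 difference of -0.59. Those of Gad2, Myo3a and Apbb1ip, were low, with log2 differences of 0.22 and 0.47.

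The zinc transporter and the tetraspanin were both lower in the KO-labelled library by less than 2-fold. Slc30a8 was 1.57-fold lower (1.53 to 1.61), from 8288 reads against 17052. It lies on chromosome 15 from 52295553 to 52335798, with no other annotated gene overlapping it. Its neighbours Aard and Med30 had log2 differences of 0.38 and -0.011. Tspan7 was at 36.3 FPKM (35.1 to 37.6) in the KO-labelled library and 63.3 FPKM (61.8 to 64.8) in WT, which is 1.74-fold lower (1.67 to 1.82). It lies on chromosome X from 10485116 to 10596604, where the rRNA gene Gm25885 overlaps it on the same strand. Its neighbours were Otc, barely detected, and Mid1ip1, with a log2 difference of -0.38. The Slc30a8 and Tspan7 differences were close to each other. Their ratio of ratios was 0.15 on the log2 scale (0.082 to 0.22).

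Ica1 was at 17.4 FPKM (16.5 to 18.3) in the KO-labelled library and 16.6 FPKM (15.8 to 17.4) in WT, from 1458 and 1823 reads. The ratio was 1.05 and its interval, 0.980 to 1.13, includes 1, so at this depth a difference could not be detected. The sign of its log2 difference, 0.067, turned under the 3 other scalings, to -0.017 with the median ratio set to 1. Ica1 lies on chromosome 6 from 8630527 to 8778540 on the minus strand. Unlike Ica1, its neighbours Glcci1 and Nxph1 were on the lower side, with log2 differences of -0.70 and -0.86.

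**Figure D2:**
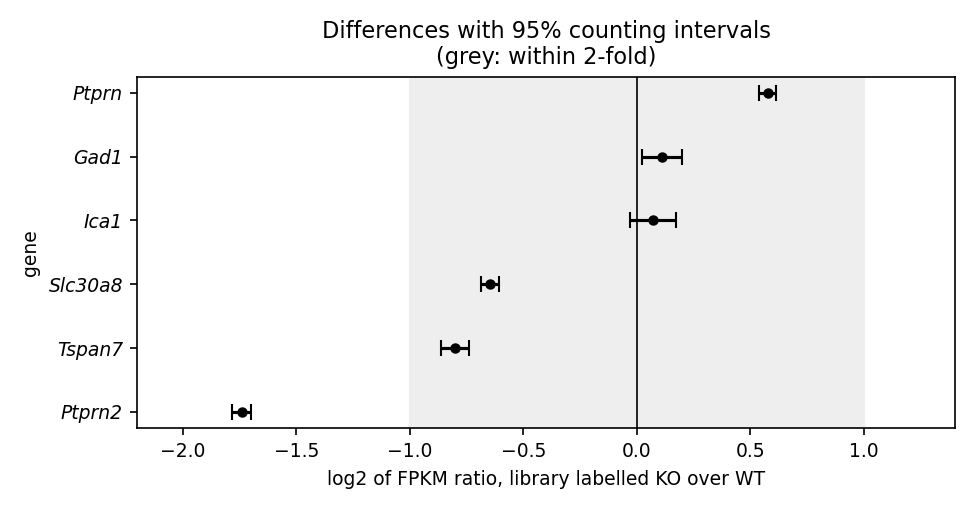
Log2 of the FPKM ratio, library labelled KO over WT, for the 6 genes above 1 FPKM, with exact 95% Clopper-Pearson intervals of counting error; the grey area spans 2-fold either way. Ptprn2 alone lies outside it at -1.74, Ptprn lies highest at 0.58, and the interval of Ica1 crosses 0.

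A gene was counted as different at 2-fold on the scale log2((KO + 1)/(WT + 1)), which understates the change of low genes, among genes that reached 1 FPKM in either of the libraries. Of the 7 genes 6 passed this floor, each in both libraries, and Gad2 did not. On this scale Ptprn2 was at -1.73, Tspan7 at -0.78, Slc30a8 at -0.65, Ica1 at 0.067, Gad1 at 0.11 and Ptprn at 0.57. So 1 of the 6 was at least 2-fold lower and none at least 2-fold higher. Over all 12428 expressed genes 3.88% were at least 2-fold lower (482 genes) and 6.98% at least 2-fold higher (868 genes). With so few members a count of 1 cannot be read as different from that background. The median of the 6 genes was -0.29, against 0.077 over all expressed genes. Ptprn2 by itself lay far out, with 0.426% of expressed genes below it. Tspan7 had 7.39% below it, Slc30a8 11.3%, and Ptprn 77.9%. Lower calls were more frequent among abundant genes. Of 485 genes above 100 FPKM, 8.45% were at least 2-fold lower (41 genes), although their median was 0.35.

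Higher genes made up 64.3% of all 2-fold differences with the values as deposited. They made up 46.5% when both libraries were scaled to a sum of 1000000, 44.9% with equal sums without the 20 highest genes, and 52.3% with the median ratio set to 1. Scaling to a sum moved the median of all genes by -0.12 and leaving out the 20 highest genes moved it by -0.13. Relative to the median gene, Ptprn stood at 0.49 as deposited and at 0.47 and 0.48 under these scalings. Ptprn2 stood at -1.81, -1.84 and -1.82, Slc30a8 at -0.72, -0.75 and -0.74, and Tspan7 at -0.86, -0.89 and -0.87. Gad1 and Ica1 stood between -0.034 and 0.028 in each of the 3.

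The genes also differed from each other irrespective of scaling. Of the 15 pairs among the 6 genes, 6 had ratios that differed at least 2-fold between the libraries, and Ptprn2 was in 4 of these. Ptprn2 differed by less than 2-fold from Tspan7 alone, with a log2 ratio of ratios of -0.94 (-1.01 to -0.87). The other 2 pairs joined Ptprn to Slc30a8 (1.22, 1.17 to 1.28) and to Tspan7 (1.38, 1.30 to 1.45). Gad1 and Ica1 kept the same ratio within counting error (0.038, -0.094 to 0.17). The share of all gene pairs past 2-fold was not counted, so 6 of 15 cannot be read as particular to these genes. The quartiles of the log2 differences of all expressed genes were -0.35 and 0.51. These ratios still hold the trend on base composition and length described below. With that trend removed, Ptprn (0.14) was less than 2-fold from Slc30a8 (-0.57) and from Tspan7 (-0.33). Ptprn2 (-2.02) was then more than 2-fold from Tspan7 as well.

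Differences in this table moved with the base composition of transcripts, and the 6 genes cover much of that range. The median log2 difference of expressed genes was -0.25 among transcripts of 42 to 44% GC and 0.50 among those of 58 to 60%. Ptprn, at 59.5% GC, lay near its own band: the 683 expressed genes within 1 percentage point of it had a median of 0.52, and 54.8% of them lay below Ptprn. Ptprn2, at 55.6% GC, lay far from its band, whose 1264 genes had a median of 0.36 with 0.237% of them below Ptprn2. Tspan7 and Slc30a8 are poor in GC, at 43.1% and 45.3%, and their bands had medians of -0.25 and -0.19 with 14.2% and 18.8% of genes below them. Gad1 and Ica1, at 48.4% and 52.3%, lay within the quartiles of their bands. With the trend on GC content and length removed, Ptprn was at 0.14, Tspan7 at -0.33, Slc30a8 at -0.57, Ica1 at -0.17, Gad1 at 0.20 and Ptprn2 at -2.02. Ptprn2 was thus past 2-fold in either case, and the log2 ratio of ratios of Ptprn2 to Ptprn was still -2.16. What part base composition has in the other differences was not tested. For the lists below, a corrected value is the log2 difference with this trend removed.

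**Figure D3:**
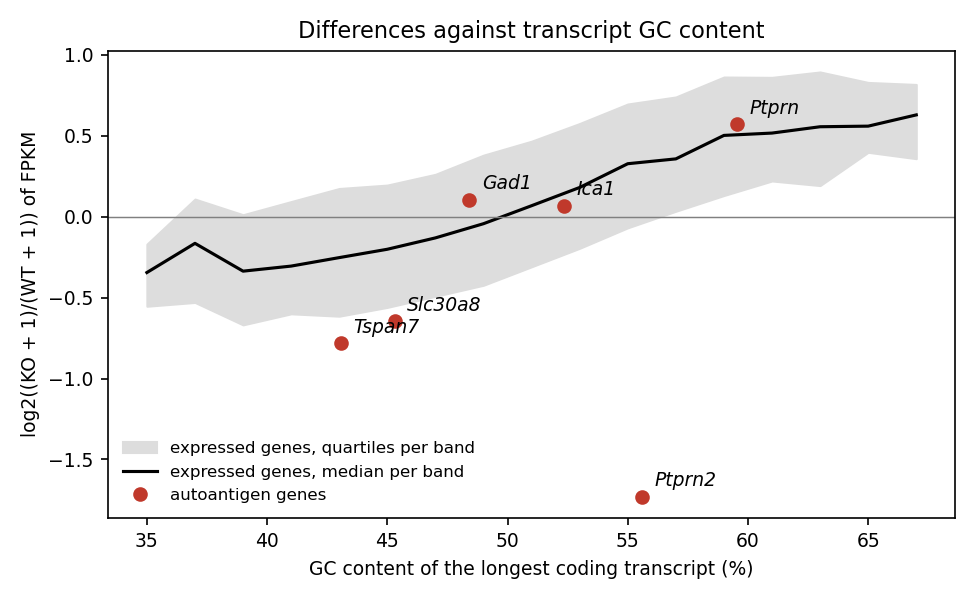
Log2 difference against GC content of the longest coding transcript: the black line is the median and the grey area the quartiles of expressed genes in bands of 2 percentage points, and red points are the 6 autoantigen genes above 1 FPKM. Ptprn lies close to the median of genes of its composition, whereas Ptprn2, at -1.73, lies well below the quartiles.

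**Figure D4:**
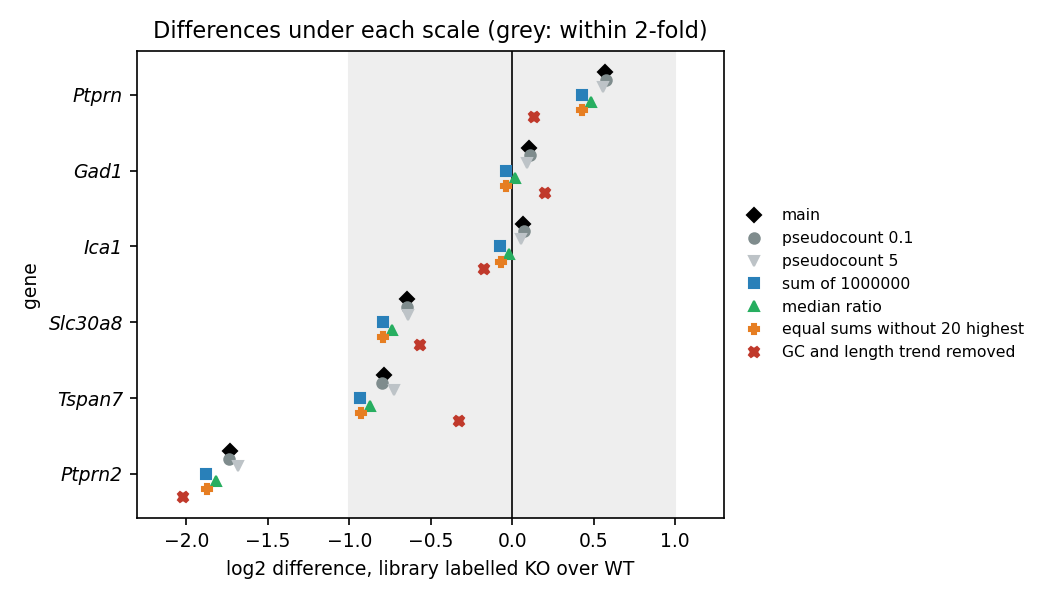
Log2 difference of each of the 6 genes with the main setting (black diamonds) and with other pseudocounts, scalings and the GC and length correction, on 1 axis with the 2-fold range in grey. Ptprn2 stays between -2.02 and -1.68, and the symbols of Gad1 and Ica1 fall on both sides of 0.

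Genes nearest in level in both libraries were found by Euclidean distance on the log2(FPKM + 1) scale, over 2 libraries only. No gene lay within 0.1 of Ptprn2 or Slc30a8. The nearest to Ptprn2 were Rnase4, a secreted ribonuclease (distance 0.35), and Hyou1, a chaperone of the endoplasmic reticulum (0.37). The nearest to Slc30a8 were Manf and Ero1b, also proteins of the endoplasmic reticulum (0.16 and 0.19). Srsf5 and Atp6v1f were nearest to Ptprn (0.050 and 0.10), and Lrrc59 and Setd3 to Tspan7 (0.049 and 0.052). Gad1 had 22 genes within 0.1, led by Idh2 and U2af2, and Ica1 had 49, led by Whrn and Mak16. Gad2 lay within 0.1 of 1385 other genes near 0, of which Slc6a5 and Art2b were nearest, so its pattern is not distinctive.

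Other proteins named as islet autoantigens were compared as a further list, of which all 10 genes were expressed. For this and the following lists, the values to read against are the 3.88% and 6.98% of all expressed genes that were lower and higher by 2-fold, and their median of 0.077. For abundant genes, the lower share to read against is the 8.45% found among genes above 100 FPKM. As above, 2-fold was counted on the log2((KO + 1)/(WT + 1)) scale. A gene whose raw FPKM values differ by just over 2-fold, or that is low, can therefore fall short. G6pc2, a glucose-6-phosphatase subunit, was at 427 against 1334 FPKM, 3.13-fold lower (3.04 to 3.21) in the KO-labelled library, beside 3.34-fold for Ptprn2. Ins1 was the 1 gene at least 2-fold higher, at 237131 against 113793 FPKM, while Ins2 was at 182558 against 250577 FPKM; the insulin transcripts are near copies, so the division of reads between them is uncertain. The other values were log2 differences of -0.94 for the chaperone Hspa5, -0.89 for islet amyloid polypeptide Iapp and -0.68 for carboxypeptidase Cpe. They were -0.55 for the mitochondrial chaperonin Hspd1 and -0.19 for chromogranin Chga. The transcription factor Sox13 was at 0.89 and the neuronal filament gene Prph at 0.77. The median was -0.50, with 7 of 10 below 0. Corrected values kept G6pc2 past 2-fold (-1.57) but not Ins1 (0.79), and put Ins2 (-1.07) and Iapp (-1.04) past it on the lower side.

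The pathway of the GAD enzymes was measured through 15 expressed genes of 19 listed for GABA metabolism, transport and release. At least 2-fold lower were Abat, the transaminase that breaks GABA down, and Glul, the enzyme that makes glutamine from glutamate. Abat was at 13.1 against 30.4 FPKM (2.33-fold, 2.16 to 2.52) and Glul at 103 against 216 FPKM (2.11-fold, 2.03 to 2.18). None was at least 2-fold higher, and the median was -0.19. Corrected values kept both (-1.07 and -1.05) and put Lrrc8c, a subunit of the volume-regulated anion channel, past 2-fold on the higher side (1.15, against 0.76 before). Of 19 listed GABA receptor genes 3 were expressed. Gabbr1, a subunit of the metabotropic GABA-B receptor, was at 29.0 against 12.2 FPKM (2.37-fold higher, 2.22 to 2.54). Its partner subunit Gabbr2 was at 8.21 against 12.9 FPKM (log2 difference -0.59).

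Granule proteins and partners of Ptprn were mostly on the lower side, with 18 of 23 expressed genes below 0 and a median of -0.43. At least 2-fold lower were the granin Scg2 (868 against 2684 FPKM), the proinsulin convertase Pcsk1 (37.2 against 96.3 FPKM) and the priming factor Cadps (10.7 against 22.6 FPKM). Of these only Scg2 remained past 2-fold after correction (-1.53), with Pcsk1 at -0.92 and Cadps at -0.82. None was at least 2-fold higher, and Pcsk1n, which encodes an inhibitor of that convertase, reached 0.90. In the phosphatase family of Ptprn and Ptprn2, none of 15 expressed genes differed 2-fold with 1 FPKM added, although the raw ratio of Ptprd was 2.09 (1.83 to 2.39). Ptprt was lowest at -0.62 and Ptprb, a phosphatase of endothelial cells, highest at 0.84. The median of that family was 0.082. After correction 2 were past 2-fold on the higher side, Ptprd (1.22) and Ptprb (1.17).

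Among 20 expressed genes of zinc transport and storage other than Slc30a8, 2 were lower and 2 higher by 2-fold or more, and the median was -0.25. The lower ones were the exporter Slc30a4 (3.90 against 9.40 FPKM) and the importer Slc39a9 (12.5 against 26.4 FPKM). The higher ones were the importer Slc39a2 (1.71 against 0.274 FPKM) and the metallothionein Mt3 (11.1 against 4.28 FPKM). None of the 4 was past 2-fold after correction: Slc30a4 was at -0.64, Slc39a9 at -0.77, Slc39a2 just short at 0.998 and Mt3 at 0.054. The metallothionein Mt2 then passed it on the lower side, at -1.02 against -0.10 before. The zinc transporter with the next highest level after Slc30a8 was Slc39a7, at 136 and 129 FPKM.

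None of the 10 relatives and partners of Ica1 differed 2-fold. The widest were the BAR-domain gene Arfip1 at -0.94 and Pick1, the BAR-domain partner of Ica1, at 0.56, and the paralog Ica1l was at 3.00 against 4.08 FPKM. The median was -0.46, with 8 of 10 below 0. Of 22 expressed tetraspanins other than Tspan7, 14 were above 0 and the median was 0.27. In corrected values 12 were above 0 and 10 below, with a median of 0.021. Tspan17 was at 20.5 against 8.65 FPKM (2.37-fold higher, 2.05 to 2.73), with a corrected value of 0.49. On the other side Tspan2, at -0.81, was the 1 tetraspanin with a value below that of Tspan7, but 6 of the 22 lay below it in corrected values.

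**Figure D5:**
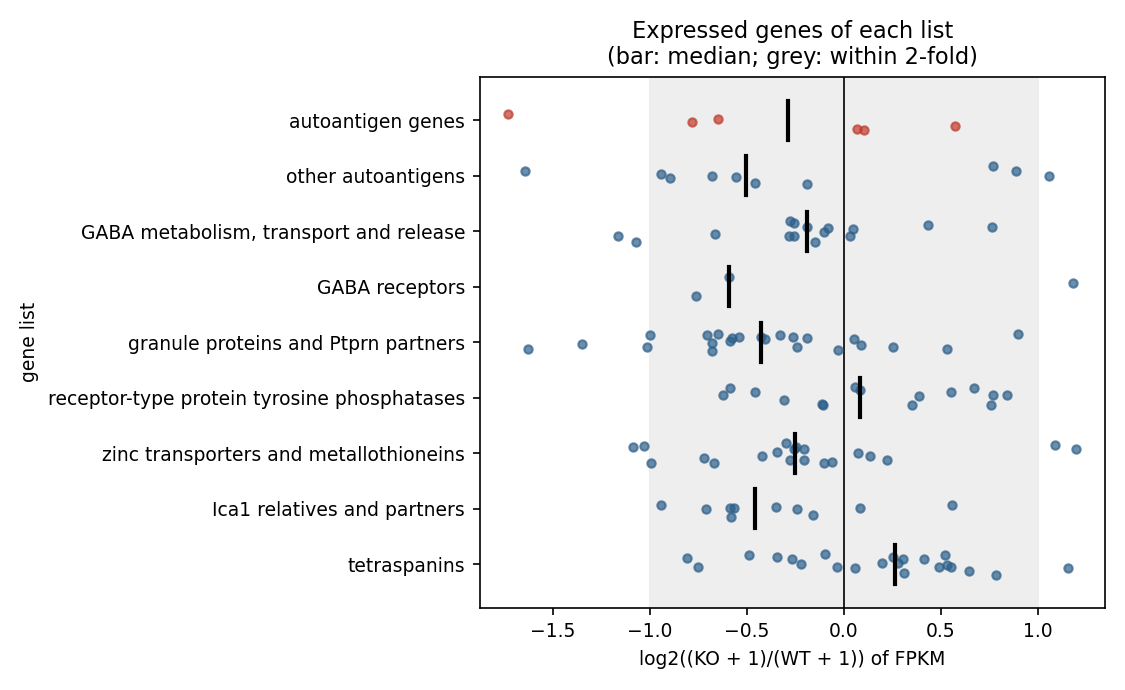
Log2 differences of the expressed genes of each list as points, with the list median as a black bar and the 2-fold range in grey; vertical scatter within a list has no meaning. The autoantigen genes (red) spread from -1.73 to 0.57, while the granule proteins have a median of -0.43 and the tetraspanins one of 0.27.

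Markers of the cell types in the preparation also differed between the libraries. Of 11 β-cell markers, 4 were lower by 2-fold or more in the KO-labelled library and 1, Ins1, was higher by as much; the median was -0.46. Ins1, Ins2, Iapp and G6pc2 are in this list and in that of the other autoantigens, so the counts of these lists are not separate observations. The summed level of the 11 β-cell markers, almost wholly insulin, was 437408 against 396741 FPKM. Summed α-cell markers, mostly Gcg, were at 28680 against 28688 FPKM. Of these 9 markers 4 were above 0 and 5 below, with 1 at least 2-fold lower, though not after correction. Summed δ-cell markers, mostly Sst, were at 4717 against 3025 FPKM, and those of PP- and ε-cells, mostly Ppy and Pyy, at 12850 against 7756 FPKM. The corrected values of Sst (-0.18) and Ppy (-0.47) had the opposite sign, and that of Pyy was 0.19. After correction 4 of 5 δ-cell markers and 2 of 3 markers of PP- and ε-cells were above 0. All 10 expressed acinar markers of 13 were at least 2-fold lower, with sums of 103 against 1861 FPKM. Endothelial markers were at 696 against 303 FPKM with 5 of 10 at least 2-fold higher, macrophage markers at 380 against 163 FPKM with 7 of 10, and stromal markers at 210 against 110 FPKM with 2 of 9. Sums for ductal markers were 214 and 189 FPKM, and for glial and neuronal markers 114 and 96.1 FPKM, with none past 2-fold in either list before correction. After correction 3 endothelial, 1 macrophage (Aif1) and 4 stromal markers were past 2-fold on the higher side, all 10 acinar markers were still past it, and 5 β-cell markers were lower and none higher among 10 with a corrected value. Only Cd79a of 10 lymphocyte markers was expressed, at 2.68 against 7.11 FPKM, with sums of 4.12 and 8.43 FPKM. No defining marker of any of these lists was at 0, although Cd3e, Cftr and Rbfox3 were below 0.2 FPKM in both libraries. The part of these markers' cells in the differences of the autoantigen genes was not tested.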

How the data were processed

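RNA of cultured islets was sequenced, and the genotype label gave 1 library to each group. FPKM values were deposited by the authors in 1 table with a column per library. The submitters' processing notes name mm10 (GRCm38) as the build; for the aligner, counter, annotation and strand setting the sources used here give nothing. Values were used as deposited, with a pseudocount of 1 FPKM, a floor of 1 FPKM in either library and a limit of 2-fold. Library totals were found as the whole numbers that turn low FPKM values into whole reads and lengths (60 to 30000 nucleotides). With them 17178 of 17245 genes (99.6%) gave whole reads, with a tolerance of 1e-05 of a read and a further 1e-09 of the reads. The smallest such reads were used, so an interval can be too wide. Intervals of ratios within or between libraries are Clopper-Pearson, those of levels Poisson, and those of ratios of ratios Woolf (log odds ratio), each at 95%. PCR reads without molecular identifiers are not independent molecules. The procedure was tested on simulated data. FPKM values without replicates allow no count test.

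The genes, the lists and the rule for named genes were chosen with earlier results of these data known. Some lists share genes. Ins1, Ins2, Iapp and G6pc2 are other autoantigens and β-cell markers, and Chga and Cpe are other autoantigens and granule proteins. Pcsk1n is in the granule and α-cell lists, and Hid1 and Ccdc186 are in the granule and Ica1 lists. The rule named all 7 genes and the 10 other autoantigens, from each list up to 4 genes past 2-fold or else the widest in each direction, the 2 genes nearest in level, and neighbouring or overlapping genes; Pcsk1n, Gabbr2, Ica1l, Tspan2, Slc39a7, Lrrc8c, Ptprd, Mt2, Sst, Ppy, Pyy, Aif1, Cd3e, Cftr and Rbfox3 were added after their values were seen. Transcript GC content and length came from GENCODE M21 (98.2% of expressed genes matched) and were removed by lowess (fraction 0.3, 3 iterations). A value that the rule takes is not reported here. Coordinates came from RefSeq on GRCm38.p6. Alternatives were pseudocounts of 0.1 and 5 FPKM, no floor and a floor of 5 FPKM, 3 scalings, the GC and length correction and, chosen after seeing the data, another transcript length and the GC and length correction for the lists. Python 3.11.15, scipy 1.17.1 and statsmodels 0.14.6 were used.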

Additional observations from a re-analysis of the deposited data

How the results depend on the processing

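In each of the 8 alternatives Ptprn2 was past 2-fold on the lower side (-2.02 to -1.68) and none of the other 5 expressed genes passed 2-fold. Ptprn stayed above 0 (0.14 to 0.58), and Slc30a8 (-0.79 to -0.57) and Tspan7 (-0.93 to -0.33) stayed below it. Gad1 was below 0 in 2 of the 8 and Ica1 in 4. The median of the expressed autoantigen genes, -0.29, was -0.43 with each library scaled to a sum of 1000000, -0.38 with the median ratio set to 1, -0.43 with equal sums without the 20 highest genes, -0.25 with the GC and length trend removed and 0.0054 with no floor, which brings in Gad2. The log2 ratio of ratios of Ptprn2 to Ptprn was -2.16 with the trend removed. Among all genes tested, 1556 were higher by 2-fold with a pseudocount of 0.1, 305 higher and 181 lower with a pseudocount of 5, 394 higher with the trend removed, and 796 lower after scaling to a sum; 868 and 482 were the counts as reported. These shifts come from the changed setting, applied to the same values. Before scaling the FPKM values summed to 755285 in the KO-labelled library and 682182 in WT. Why the libraries differ in this sum and with base composition was not tested.

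No paired analysis was possible because each genotype has 1 library. Depth limits Gad2, with 1 read per library, and sets the width of the Gad1 and Ica1 intervals. Spread between mice is unknown for every value.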
